A study of Mus musculus with 12 samples.

Results

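The clustered mouse granzymes C, D, E, F, G and N (Gzmc, Gzmd, Gzme, Gzmf, Gzmg and Gzmn) were described in RNA from CD8+ T cells sorted out of mouse tumours. The 6 genes were found by symbol among the 56980 genes of the count table, and 5 of them passed the filter on low counts, along with 20411 genes in all. They were chosen from a result in these libraries, the low counts of granzymes C to F in asGM1-negative cells of Flt3L Panc02 tumours, so the contrast between tumour types in asGM1-negative cells is given below as values with no test.

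The 12 libraries came from wild-type C57BL/6J mice bearing tumours of the pancreatic cancer cell line Panc02 or of Panc02 made to express Flt3L, which drives the growth of dendritic cells. Cells of all groups were sorted as DAPI-negative (live), CD45.2+ and CD8+, and then split into 2 gates, without and with surface asialo-GM1 (asGM1), a glycolipid of NK cells and of some activated T cells. Each tumour type thus gave 3 libraries of the negative (asGM1-) and 3 of the positive (asGM1+) gate, with no untreated or tumour-free group. The labels give neither the age of the mice nor the number of Flt3L Panc02 clones, and no T cell receptor marker is named in the sort. Nor do they state whether each replicate was another mouse, so p-values measure only the spread between these samples.

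Library totals lay between 98663008 and 102896605 counts. Cd8a, a chain of the CD8 receptor, was abundant in every library, and Ncr1, which defines NK cells, did not exceed 1.25 CPM (counts scaled to each library's size) in any. Rank correlations over genes were 0.973 to 0.983 within groups and 0.942 to 0.978 between groups. Markers of plasmacytoid dendritic cells were lower in the asGM1-positive gate, with 7 of 10 called lower in each tumour type. In bulk RNA, fewer cells that express a gene and less RNA of it per cell cannot be told apart.

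Granzymes are serine proteases that killer lymphocytes store in granules and release towards a target cell, where the pore-forming protein perforin (Prf1) lets them enter. Granzyme B, which cuts after aspartate and activates caspases, shares a locus in the mouse with granzymes C to G and N and with proteases of mast cells. Granzymes C to G are known from strongly or repeatedly stimulated killer cells and from NK cells cultured in interleukin-2, and they have no direct counterparts in humans. Granzyme C kills cells through damage to mitochondria, and granzyme N is known from male germ cells.

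In the RefSeq table the genes lie on chromosome 14 in the order Gzme, Gzmd, Gzmg, Gzmn, Gzmf, Gzmc and Gzmb, with pseudogenes and small nucleolar RNA genes between some of them. All 6 members and Gzmb were matched by symbol in the RefSeq promoter table of GRCm38.p6, a build other than the mm39 named in the submitters' processing notes. Below are the 140 bases before the annotated start of each member, upstream of the first exon, shown because the 5 detected members were all lower in Flt3L Panc02 libraries. Capitals mark 3 motifs. TGACGTCA is the palindrome bound by CREB and ATF factors, and TGTGGT is the reverse complement of the RUNX core ACCACA. Nearest the start, TTTAAA resembles a core promoter box.

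Gzmc (chr14:56234658-56234797, minus strand): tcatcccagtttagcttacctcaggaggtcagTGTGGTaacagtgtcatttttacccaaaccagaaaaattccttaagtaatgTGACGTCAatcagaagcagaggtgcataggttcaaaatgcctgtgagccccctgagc
Gzmf (chr14:56211408-56211547, minus strand): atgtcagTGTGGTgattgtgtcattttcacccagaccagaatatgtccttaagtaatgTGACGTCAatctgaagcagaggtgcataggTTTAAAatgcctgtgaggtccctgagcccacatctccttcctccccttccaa
Gzmd (chr14:56132594-56132733, minus strand): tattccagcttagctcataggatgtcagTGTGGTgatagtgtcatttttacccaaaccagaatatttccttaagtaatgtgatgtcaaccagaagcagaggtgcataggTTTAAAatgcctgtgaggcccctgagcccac
Gzme (chr14:56120626-56120765, minus strand): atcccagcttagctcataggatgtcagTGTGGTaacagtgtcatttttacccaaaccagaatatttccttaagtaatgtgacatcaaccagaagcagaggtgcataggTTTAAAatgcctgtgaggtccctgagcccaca
Gzmg (chr14:56159580-56159719, minus strand): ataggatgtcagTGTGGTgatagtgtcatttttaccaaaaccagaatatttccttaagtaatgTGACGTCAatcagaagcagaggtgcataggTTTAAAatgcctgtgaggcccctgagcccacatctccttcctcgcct
Gzmn (chr14:56174600-56174739, minus strand): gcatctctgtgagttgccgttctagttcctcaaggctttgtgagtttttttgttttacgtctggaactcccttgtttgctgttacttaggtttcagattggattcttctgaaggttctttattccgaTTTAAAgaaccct

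Upstream of their starts the 5 detected members were close copies. Over the 250 bases before the start, their 10 pairs were 84.4% to 95.6% identical across 225 to 249 aligned bases, with Gzmd and Gzme the closest. The run gaagcagaggtgcataggtt stood in all 5 and in no other of 32851 promoter windows of the same kind, including those of Gzmn and Gzmb. Gzmn shared no run longer than 9 bases with any other member's 250 bases.

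The palindrome TGACGTCA was present in Gzmc, Gzmf and Gzmg, beginning 57, 82 and 77 bases before the start. At the same place Gzmd carried C4T and Gzme carried G5A, counting from 1 at the 5′ end of the palindrome. Searched on both strands, it was found in 1.55% of the 32851 windows. The RUNX core ACCACA was found at 2 places in each of the 5 detected members, against 14% of windows with any match, and TTTAAA in all of the 5 except Gzmc, against 12.1%. An AP-1 site, TGANTCA, present in 6.75% of windows, and a T-box site, TCACACCT, present in 1.12%, were not found in the windows of the 6 members. These matches describe letters in the reference sequence only.

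The gene models are also similar in their transcripts, which bears on how reads were divided among them. Gzmd and Gzme transcripts were 94.8% identical, and Gzmc was 71.6% to 75.2% identical to the other members. Exact stretches of 100 bases shared with another gene were limited to Gzmd and Gzmg, at 0.231% and 0.247% of their windows. How the authors' counting treated reads that fit several members is not given in the sources used here, so the split among Gzmd, Gzme, Gzmf and Gzmg is uncertain. A read moved between members leaves their sum as it was.

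Gzmc was the member with the most counts in all 12 libraries. In Panc02 tumours it reached 947.1, 2413 and 1847 CPM in replicates 1, 2 and 3 of the negative gate, and 1335, 2185 and 1651 CPM in those of the positive gate. In the same order it reached 276.1, 37.0 and 120.8 CPM (negative gate) and 414.3, 74.1 and 229.3 CPM (positive gate) in Flt3L Panc02 tumours. All 6 Panc02 libraries thus lay above all 6 Flt3L Panc02 libraries, and the gates overlapped within each tumour type. The asGM1-negative libraries among them are those by which the genes were chosen. In asGM1-positive cells alone, 16.5% of all genes tested were likewise lower in Flt3L Panc02 tumours without overlap.

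Gzmf, another granzyme reported to kill target cells, came next. Its Panc02 values were 151.5, 643.6 and 562.0 CPM in the negative gate and 282.6, 713.2 and 548.9 CPM in the positive gate. Its Flt3L Panc02 values were 68.2, 7.64 and 45.2 CPM in the negative gate and 121.6, 30.4 and 97.8 CPM in the positive gate. The tumour types did not overlap for Gzmf either, with the same limit.

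Gzmd and Gzme, whose substrates are little known, were lower and nearly equal to each other. Gzmd read 27.1, 137.8 and 124.0 CPM in the negative and 30.2, 104.8 and 78.5 CPM in the positive gate of Panc02 tumours, against 10.8, 4.40 and 7.48 CPM and 9.19, 1.54 and 6.99 CPM in Flt3L Panc02 tumours. Gzme read 22.5, 118.0 and 108.1 CPM and 25.3, 95.3 and 67.5 CPM in Panc02 tumours, against 11.7, 3.39 and 8.20 CPM and 9.65, 1.84 and 6.69 CPM in Flt3L Panc02 tumours. Both genes were lowest in replicate 1 of each gate in Panc02 tumours and in replicate 2 of each gate in Flt3L Panc02 tumours.

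Gzmg was detected at a low level. Its values were 3.43, 21.9 and 18.3 CPM in the negative and 4.51, 24.7 and 15.1 CPM in the positive gate of Panc02 tumours. For Flt3L Panc02 tumours they were 1.02, 0.379 and 0.614 CPM in the negative gate, and 1.48 CPM in replicate 1 and 0 in replicates 2 and 3 of the positive gate. Gzmn had 0 counts in all 12 libraries. A count of 0 allows up to 3 fragments, which at about 2.75 deposited counts per fragment is 8.25 counts, or 0.0763 to 0.0914 CPM depending on the library, and this covers counting error only.

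**Figure D1:**
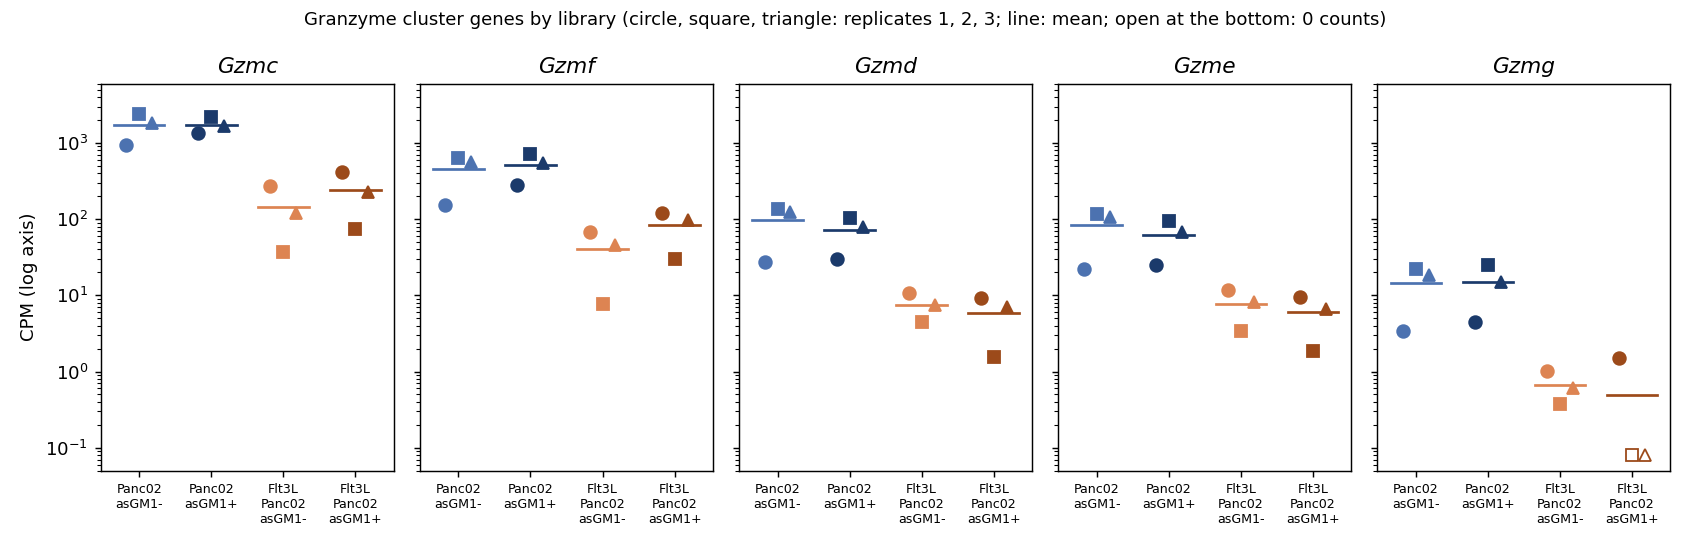
CPM of the 5 detected members in each library, on a log axis, with the 3 replicates of a group as a circle, a square and a triangle and the group mean as a line. Blue Panc02 libraries lie above orange Flt3L Panc02 libraries in every panel, the Gzmc group means being 1736 and 1724 CPM against 144.6 and 239.2 CPM, and open marks at the bottom stand for the 2 libraries with 0 counts of Gzmg.

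Levels of different genes were compared per kilobase of transcript, in Panc02 tumours first. Mean Gzmc was 1941 ± 827 CPM per kilobase (SD, n = 3) in the negative and 1928 ± 480.8 in the positive gate. On that scale Gzmf followed at 492.2 ± 287 and 560.3 ± 236.5, Gzmd at 99.9 ± 62.6 and 73.8 ± 39.2, Gzme at 90.5 ± 57.4 and 68.5 ± 38.5, and Gzmg at 16.0 ± 10.8 and 16.3 ± 11.1. Gzmd was slightly above Gzme in each Panc02 library, such as 28.16 against 24.54 in asGM1-negative replicate 1 and 108.7 against 104.1 in asGM1-positive replicate 2. The split of reads between these 2 genes is uncertain. Every Gzmc value exceeded every Gzmf value of the same Panc02 group. In asGM1-negative cells of Panc02 tumours the mean of Gzmc was near that of Gzmb, 1681 ± 957 CPM per kilobase (n = 3), and in the other 3 groups the mean of Gzmb was the higher, at 400.4 ± 224.4 against 161.8 ± 135.7 in asGM1-negative cells of Flt3L Panc02 tumours.

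Added together, the 6 genes took 1152, 3335 and 2659 CPM in the negative and 1678, 3123 and 2361 CPM in the positive gate of Panc02 tumours. The sums for Flt3L Panc02 were 367.9, 52.8 and 182.2 CPM in the negative and 556.3, 107.9 and 340.8 CPM in the positive gate. The means were 2382 ± 1118 and 2387 ± 723.2 CPM (SD, n = 3) against 201.0 ± 158.4 and 335.0 ± 224.3 CPM. The lowest Panc02 library was above the highest Flt3L Panc02 library in both gates, the negative gate being that of the choice. Between tumour types the ratio of means was 11.9 in the negative and 7.13 in the positive gate, and between gates, positive over negative, it was 1.002 in Panc02 and 1.67 in Flt3L Panc02 tumours. Leaving out 1 library gave ratios between tumour types of 8.66 to 20.3 in the negative gate, the highest without Flt3L Panc02 asGM1-negative replicate 1, and of 5.32 to 10.6 in the positive gate. The ratio between gates of Flt3L Panc02 tumours was 2.85 without Flt3L Panc02 asGM1-negative replicate 1. The sum of chosen members carries no test.

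The tumour types were compared with a test in asGM1-positive cells, whose 6 libraries were not those in which the genes were noticed. They are not fully independent of those: same-numbered Panc02 libraries of the gates deviated together (correlations of 0.411, 0.340 and 0.423 over 10169 genes) and may share a source. Cluster granzymes were lower in Flt3L Panc02 than in Panc02 tumours there. Gzmc fell, with a log2 fold change of -2.85 ± 0.71 (SE, 3 libraries per group; adjusted p = 0.0400 by edgeR's quasi-likelihood test, Benjamini-Hochberg over all genes). Gzmd changed by -3.59 ± 0.75 (edgeR adjusted p = 0.0210) and Gzme by -3.37 ± 0.77 (edgeR adjusted p = 0.0293), so 3 of the 5 tested members were called lower, where 4.2% of 20411 genes were called lower and 6.25% in either direction.

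Gzmf and Gzmg did not pass the threshold, with log2 fold changes of -2.63 ± 0.77 (edgeR adjusted p = 0.0663) and -4.89 ± 1.37 (edgeR adjusted p = 0.0572). The Gzmg value rests on a group with 2 of 3 libraries at 0. For all 5 members the 3 Flt3L Panc02 libraries lay below the 3 Panc02 libraries, a separation found for 16.5% of genes tested. The median log2 fold change was -3.37 over the 5 members tested and -0.03 over all genes. The calls depended on single libraries: 0 members were called without asGM1-positive replicate 2 of Panc02 tumours or without asGM1-positive replicate 2 or 3 of Flt3L Panc02 tumours, with adjusted p between 0.0694 and 0.141 for Gzmc, Gzmd and Gzme. A fit to the 6 libraries alone also called 0 members, with adjusted p of 0.0590 to 0.0599 for those 3 genes, and 1 gene of the whole table.

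In asGM1-negative cells the values that chose the genes were log2 fold changes of -3.59 ± 0.74 for Gzmc, -3.67 ± 0.75 for Gzmd, -3.41 ± 0.77 for Gzme, -3.49 ± 0.80 for Gzmf and -4.44 ± 1.34 for Gzmg (SE). The libraries of the tumour types did not overlap for these 5 genes, as for 12.9% of all genes tested, and 3.7% of all genes were called in this contrast. Nothing is read from these shares, since the contrast is that of the choice.

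The gates were compared to ask whether CD8+ T cells with surface asGM1 carried more of these transcripts. In Panc02 tumours 0 of the 5 members were called by edgeR, and 0 had an unadjusted p under 0.05, with 0.892% of all genes called. Log2 fold changes from asGM1-negative to asGM1-positive cells were -0.01 ± 0.66 for Gzmc, -0.44 ± 0.68 for Gzmd, -0.40 ± 0.70 for Gzme, 0.19 ± 0.73 for Gzmf and 0.02 ± 1.14 for Gzmg (SE; edgeR adjusted p 0.938 to 1). These libraries overlapped for every member. This fit ignored replicate numbers, so its SEs hold the spread between them. By number, the asGM1-positive library was the higher in 1 of 3 for Gzmc, Gzmd and Gzme and 2 of 3 for Gzmf and Gzmg. A block on number within tumour type, added after seeing the data, also called 0 members.

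In Flt3L Panc02 tumours 0 of the 5 were called as well, again with 0 at an unadjusted p under 0.05, against 8.59% of all genes called. Gzmc and Gzmf had positive values, 0.73 ± 0.67 (edgeR adjusted p = 0.540) and 1.05 ± 0.74 (edgeR adjusted p = 0.408), and Gzmd, Gzme and Gzmg negative ones, -0.36 ± 0.69, -0.36 ± 0.72 and -0.43 ± 1.26 (edgeR adjusted p 0.795 to 0.874). The gates overlapped for each gene. Compared by replicate number, the asGM1-positive library was the higher in 3 of 3 for Gzmc and Gzmf, 0 of 3 for Gzmd and Gzme and 1 of 3 for Gzmg. Whether the numbers pair these libraries is not known. A block on number within tumour type, added after seeing the data, called 2 members higher, Gzmc and Gzmf. Both gate comparisons share the asGM1-negative libraries with the contrast that chose the genes. No difference between the gate effects of the tumour types was tested.

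**Figure D2:**
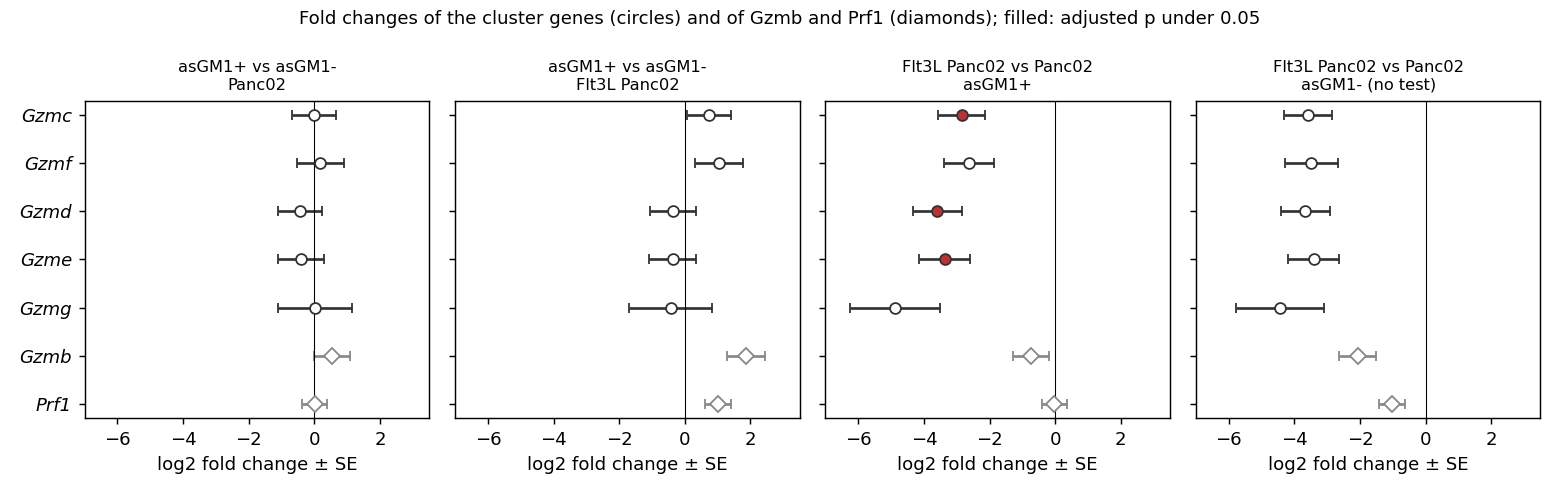
Log2 fold change with its standard error for the 5 detected members (circles) and for Gzmb and Prf1 (diamonds) in the 4 comparisons, filled where the adjusted p was under 0.05. The gate comparisons scatter about 0 for the members, and in asGM1-positive cells Gzmc, Gzmd and Gzme are filled at -2.85, -3.59 and -3.37.

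In the deposited counts the members did not keep the same proportions in both gates, though the split of reads among them is uncertain. Gzmc made up 66.3% to 82.2% of the sum over the 12 libraries. Gzmf counts per Gzmd count were 5.58, 4.67 and 4.53 in the negative and 9.34, 6.80 and 6.99 in the positive gate of Panc02 tumours. For Flt3L Panc02 tumours they were 6.29, 1.74 and 6.04 in the negative and 13.2, 19.8 and 13.99 in the positive gate. In each tumour type the 3 asGM1-positive libraries lay above the 3 asGM1-negative ones. The ratio was picked after its values were seen and has no test.

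Among the 6 ratios that Gzmc, Gzmd, Gzme and Gzmf form, the gates were apart for 2 in Panc02 tumours (Gzmd and Gzme, each over Gzmf) and for 4 in Flt3L Panc02 tumours (the same 2 and Gzmc over each of Gzmd and Gzme). These ratios have no test, and no share over other gene pairs stands beside them. Gzmd and Gzme varied closely together, so ratios that differ only in these genes are not separate results. Gzmc counts per Gzmd count spanned 8.41 to 25.5 in the negative and 32.8 to 48.2 in the positive gate of Flt3L Panc02 tumours. By contrast, Gzmd counts per Gzme count overlapped between the gates, at 1.15 to 1.21 and 1.10 to 1.19 in Panc02 and at 0.912 to 1.30 and 0.835 to 1.04 in Flt3L Panc02 tumours. None of these 4 genes was itself called between the gates in the fit that ignored replicate numbers.

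**Figure D3:**
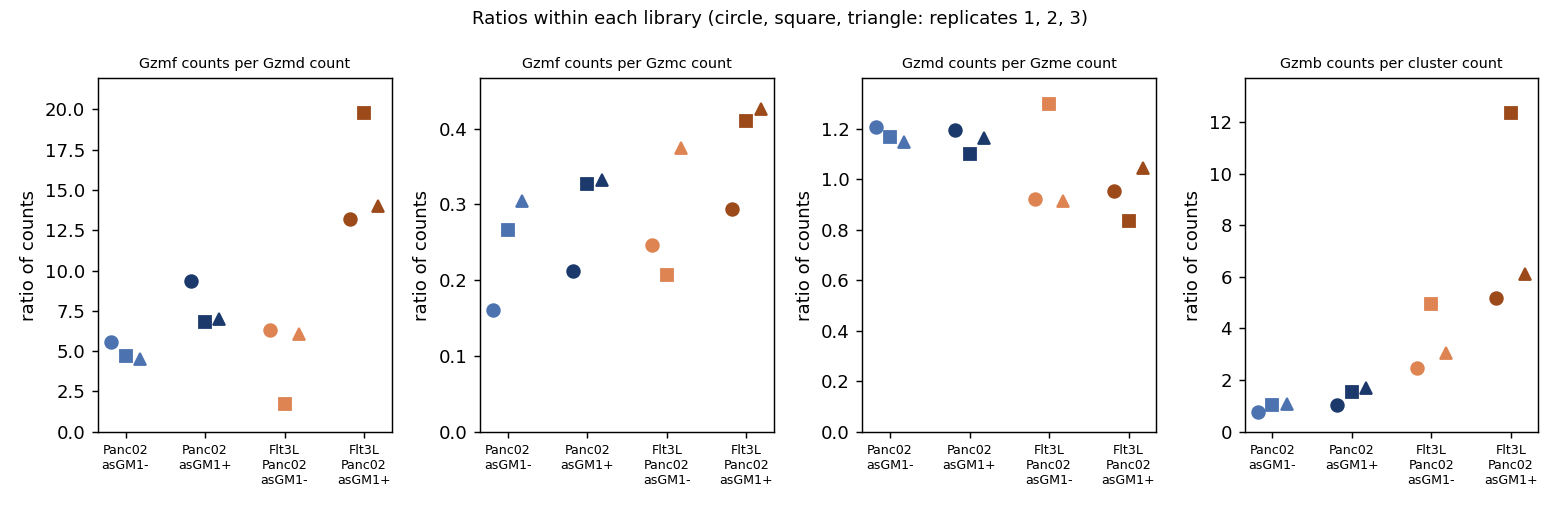
Ratios of counts within each library, with replicates 1, 2 and 3 as a circle, a square and a triangle and each vertical axis starting at 0. Gzmf per Gzmd lies at 4.53 to 5.58 against 6.80 to 9.34 in Panc02 and at 1.74 to 6.29 against 13.2 to 19.8 in Flt3L Panc02 tumours, asGM1-negative against asGM1-positive. Gzmb per cluster count is 1.03 to 1.68 in Panc02 and 5.17 to 12.3 in Flt3L Panc02 tumours in the positive gate, and its negative gate holds the low cluster counts by which the genes were chosen.

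The members varied together from library to library in Panc02 tumours, and less evenly in Flt3L Panc02 tumours. In the 6 Panc02 libraries Pearson's r of log2 CPM was 0.927 to 1 over the 10 pairs of detected members, and all 5 were lowest in asGM1-negative replicate 1 and next lowest in asGM1-positive replicate 1. Part of this rested on those libraries: without the 2 libraries farthest from the median, r was 0.994 for Gzmd with Gzme and 0.338 for Gzmd with Gzmf. In the 6 Flt3L Panc02 libraries r was 0.977 for Gzmd with Gzme and 0.958 for Gzmc with Gzmf, against 0.523 for Gzmd with Gzmf, and pairs with the sparse Gzmg lay between 0.0586 and 0.675. Without the 2 farthest libraries r there was 0.977 for Gzmd with Gzme and 0.912 for Gzmc with Gzmf, against 0.106 for Gzmd and -0.07 for Gzme with Gzmf. Libraries of 1 number may share a source, and r is a description without a test.

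By their pattern over the 12 libraries, the genes most like the log2 sum were Slc31a1, a copper transporter (r = 0.961), Hemk1 (0.960), Tubb6, a tubulin (0.960), Pla1a, a phospholipase (0.952), Lgals3bp (0.950), Nmd3 (0.949), Cenph, a centromere protein (0.947), Gadd45g, a stress response gene (0.945), Morf4l2 (0.943) and Klra5, a receptor of the Ly49 family (0.943), ranked among 9704 genes averaging at least 5 CPM. These correlations span the difference between tumour types. Within the 6 Panc02 libraries r was -0.02 for Lgals3bp and 0.453 for Slc31a1, and 0.996 for Gadd45g and 0.931 for Klra5. Klra5 was also close within the 6 Flt3L Panc02 libraries (0.972), with group means of 25.6 and 30.9 CPM in Panc02 and 5.30 and 9.53 CPM in Flt3L Panc02 tumours, asGM1-negative first. Reads of Ly49 genes can be split among near copies, so its value is uncertain. Gzmb ranked 318th (0.805), Prf1 661st (0.736), Gzma 983rd (0.679) and Gzmk 3927th (0.166). Within the 6 Panc02 and the 6 Flt3L Panc02 libraries, r was 0.935 and 0.793 for Gzmb and 0.967 and 0.852 for Prf1. In the same order r was 0.753 and 0.638 for Gzma and 0.395 and 0.331 for Gzmk.

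Gzmb, the neighbour in the locus, was set beside the cluster library by library. It read 868.0, 3496 and 2880 CPM in the negative and 1724, 4780 and 3974 CPM in the positive gate of Panc02 tumours, and 906.1, 262.3 and 556.3 CPM and 2876, 1331 and 2085 CPM in Flt3L Panc02 tumours. Its tumour types overlapped in both gates, with log2 fold changes of -0.74 ± 0.55 in the positive gate (edgeR adjusted p = 0.446) and -2.07 ± 0.57 in the negative gate (edgeR adjusted p = 0.0682). Gzmb counts per count of the cluster were 1.03 to 1.68 in Panc02 and 5.17 to 12.3 in Flt3L Panc02 libraries of the positive gate. For the negative gate they were 0.754 to 1.08 and 2.46 to 4.96, where a high ratio is in part fixed by the choice of genes with low counts. No test is given for the ratio. Between gates of Flt3L Panc02 tumours Gzmb changed by 1.87 ± 0.57 (edgeR adjusted p = 0.0649), short of the threshold, with the 3 asGM1-positive libraries on top.

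Perforin and the granzymes of other loci were not called between tumour types in either gate. Prf1 averaged 976.4 ± 321.5 CPM (SD, n = 3) in asGM1-positive cells of Panc02 and 960.2 ± 411.9 CPM of Flt3L Panc02 tumours, a log2 fold change of -0.02 ± 0.38 (edgeR adjusted p = 0.982). In asGM1-negative cells it averaged 965.1 ± 341.7 and 474.6 ± 173.1 CPM, -1.02 ± 0.39 (edgeR adjusted p = 0.161), with libraries that overlapped. Gzma, a tryptase, went from 115.5 ± 77.2 to 34.7 ± 6.82 CPM, -1.73 ± 0.59 (edgeR adjusted p = 0.101), with libraries that overlapped. Gzmk, another tryptase, went from 36.2 ± 11.3 to 49.8 ± 29.5 CPM (edgeR adjusted p = 0.497), and Gzmm, at 2.59 ± 0.51 and 4.62 ± 2.11 CPM, was near the bottom of the granzymes (edgeR adjusted p = 0.149). Of these, only Gzmk was called between gates, higher in asGM1-positive cells of Flt3L Panc02 tumours by 1.49 ± 0.39 (edgeR adjusted p = 0.0372).

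**Figure D4:**
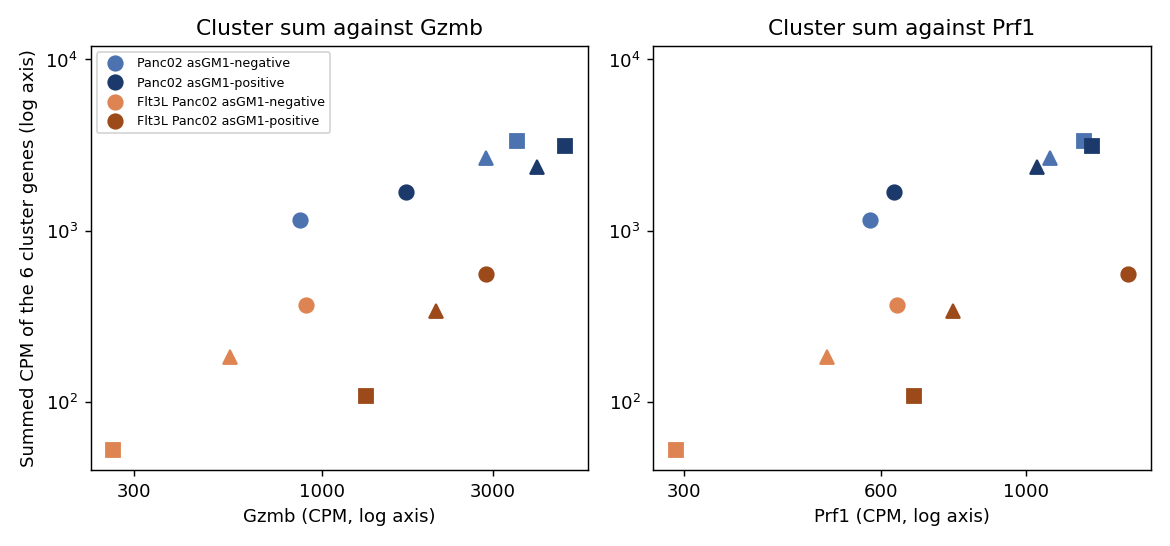
Summed CPM of the 6 cluster genes against Gzmb (left) and Prf1 (right), both axes on a log scale, 1 mark per library, with replicates 1, 2 and 3 as a circle, a square and a triangle. At Gzmb values near 900 CPM a Panc02 asGM1-negative library has a sum of 1152 CPM and a Flt3L Panc02 asGM1-negative library 367.9 CPM. Both are from the gate whose low cluster counts chose the genes. The Flt3L Panc02 libraries lie under the Panc02 libraries in both panels.

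Other genes of the granule pathway were read from lists. Of 9 granule proteases outside the cluster, tumour types differed in asGM1-positive cells for 1, the lysosomal protease Ctsl, lower by -1.44 ± 0.31 (edgeR adjusted p = 0.0217; list median -0.21). Of 10 measured genes for granule partners and exocytosis, 0 were called there by edgeR (list median 0.23), and between gates of Flt3L Panc02 tumours 2 were called higher, Nkg7, a granule membrane protein, by 0.76 ± 0.19 (edgeR adjusted p = 0.0284), and Rab27a, which docks granules, by 0.73 ± 0.20 (edgeR adjusted p = 0.0486). The 6 inhibitors of the serpin family, among them Serpinb9, the inhibitor of granzyme B, had 0 calls by edgeR in each of the 4 comparisons. Serpinb9 lay at 330.1 ± 130.5 and 342.0 ± 43.0 CPM in asGM1-positive cells of Panc02 and Flt3L Panc02 tumours (SD, n = 3).

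Among 22 cytokine receptors and transcription regulators linked to granzyme genes, the comparison of tumour types in asGM1-positive cells called 2 higher in Flt3L Panc02 tumours and 1 lower (list median 0.28). Tcf7, a factor of naive and memory T cells, rose by 1.66 ± 0.23 (edgeR adjusted p = 0.00579) and Tbx21, which encodes the effector factor T-bet, by 0.56 ± 0.13 (edgeR adjusted p = 0.0274), whereas Zeb2, a factor of terminal effector cells, fell with a log2 fold change of -0.97 ± 0.17 (edgeR adjusted p = 0.0121). In asGM1-negative cells Il2ra, the high-affinity chain of the interleukin-2 receptor, was lower by -0.97 ± 0.18 (edgeR adjusted p = 0.0159) and Cish, a target gene of that receptor, by -0.60 ± 0.12 (edgeR adjusted p = 0.0239), and Tcf7 was higher by 1.19 ± 0.23 (edgeR adjusted p = 0.0204). Between gates Tcf7 was the only call in Panc02 tumours, lower in asGM1-positive cells by -2.05 ± 0.24 (edgeR adjusted p = 0.00148). In Flt3L Panc02 tumours Tcf7 was lower and 3 others were higher, among them Tbx21 and Il2rb, the latter by 0.81 ± 0.19 (edgeR adjusted p = 0.0210).

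Effector cytokines and death ligands held 1 gene that was called lower in Flt3L Panc02 tumours in both gates. Csf2, which encodes GM-CSF, read 31.1, 53.9 and 32.0 CPM in asGM1-positive cells of Panc02 and 16.0, 7.85 and 12.2 CPM of Flt3L Panc02 tumours, a log2 fold change of -1.70 ± 0.41 (edgeR adjusted p = 0.0349). In asGM1-negative cells it was -2.00 ± 0.41 (edgeR adjusted p = 0.0251). Of the 9 genes of that list, Csf2 was the 1 called lower and Ccl5, a chemokine of effector cells, the 1 called higher in asGM1-positive cells, by 1.53 ± 0.19 (edgeR adjusted p = 0.00497). Of 20 cell cycle genes, 2 were called lower in Flt3L Panc02 tumours in asGM1-positive and 12 in asGM1-negative cells, with list medians of -0.27 and -0.61. Mki67, a marker of dividing cells, fell with a log2 fold change of -0.74 ± 0.15 in asGM1-positive cells (edgeR adjusted p = 0.0173).

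Markers of other cells that the sort could hold were set beside the cluster. The summed level of 15 NK cell and ILC1 markers, many of which activated CD8+ T cells also express, was 4137 to 5224 CPM in asGM1-positive cells of Panc02 and 6126 to 7967 CPM of Flt3L Panc02 tumours. Most of that sum was Nkg7, at 3350 to 4450 CPM and 5344 to 6986 CPM, and over the list 1 of 15 was called higher, 0 lower, with a median log2 fold change of 0.01. Klrb1c, the NK1.1 antigen gene, stayed between 7.55 and 16.0 CPM in the 12 libraries. Macrophage and monocyte markers (14 genes) summed to 1975 to 3999 CPM and 1861 to 2652 CPM in the same groups. Ly6c2 alone took 715.2 to 1146 CPM and 1065 to 1705 CPM of these sums. Of the 14 genes, 4 were called lower in Flt3L Panc02 tumours, among them Apoe by -1.62 ± 0.40 (edgeR adjusted p = 0.0375). Of 14 T cell identity genes 6 were called higher there, such as Cd247 by 0.71 ± 0.12 (edgeR adjusted p = 0.00937). The part of these markers in the cluster's difference was not tested.

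Mast cell markers (10 genes) summed to 26.6 to 70.3 CPM in asGM1-positive and 46.1 to 69.9 CPM in asGM1-negative cells of Panc02 tumours. In Flt3L Panc02 tumours the sums were 15.9 to 24.0 CPM and 11.6 to 14.99 CPM, lower as for the cluster. Within each Panc02 gate, however, they were highest in replicate 1, where the cluster was lowest. Of the 10, 1 was called lower in asGM1-positive and 3 in asGM1-negative cells (list medians -0.39 and -2.18). In asGM1-negative cells most of the mast cell sum was Kit, a growth factor receptor of mast cells and blood progenitors. Kit was lower in Flt3L Panc02 tumours in both gates (-2.32 ± 0.26 and -2.37 ± 0.26, edgeR adjusted p = 0.00347 and 0.00281). Cpa3, a mast cell carboxypeptidase, stayed between 0.0378 and 6.07 CPM. Whether such cells bear on the granzyme counts was not tested. Plasmacytoid dendritic cell markers (10 genes) summed to 661.9 to 777.3 CPM and 717.6 to 837.1 CPM in asGM1-positive cells of Panc02 and Flt3L Panc02 tumours. Most of those sums was Irf8, at 483.3 to 618.4 CPM and 508.2 to 619.2 CPM. In asGM1-negative cells, where the cluster was lowest, the 10 markers summed to 930.6 to 1003 CPM in Panc02 and 1592 to 1736 CPM in Flt3L Panc02 tumours. There 5 of 10 were called higher and 0 lower in Flt3L Panc02 tumours, with a list median of 2.07. Siglech, which defines plasmacytoid dendritic cells, lay between 40.4 and 70.1 CPM and between 252.9 and 289.9 CPM in that gate. In asGM1-positive cells Siglech lay between 0.0901 and 3.10 CPM in Panc02 and between 1.60 and 4.56 CPM in Flt3L Panc02 tumours. The part of plasmacytoid dendritic cells in the low cluster counts of asGM1-negative cells was not tested. In asGM1-positive cells the sums of CD4 and regulatory T cell markers (6 genes) were 190.2 to 273.1 CPM and 304.6 to 565.6 CPM. Most of these sums was Ctla4, at 130.4 to 225.1 CPM and 248.3 to 501.7 CPM. Cd4 lay at 2.78 to 3.25 CPM and 4.43 to 4.98 CPM, and Foxp3 at 5.29 to 11.6 CPM and 9.28 to 11.1 CPM.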

How the data were processed

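Messenger RNA of 12 libraries (4 groups of 3) was measured by RNA-seq, grouped and numbered by their titles. RNA was taken with TRIzol, per the labels' protocols, which name TruSeq mRNA and also SMARTer ultra low input kits, so strand handling is unknown. The submitters' processing notes name HISAT2, StringTie and mm39, with no versions. The authors deposited expected counts (estimated counts per gene), already whole. Small values peaked at 3, 6, 9, 11 and 14, from which 1 fragment was taken as worth 2.67 to 2.75 counts. Amplified fragments are not independent molecules.

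Counts were fitted with edgeR 4.0.16 (R 4.3.3): TMM factors, filterByExpr (20411 of 56980 genes), and a quasi-likelihood fit with a mean for each of the 4 groups, over all 12 libraries. The threshold was an adjusted p of 0.05 (Benjamini-Hochberg) over all genes tested. CPM use TMM-scaled library sizes, and log2 CPM a prior count of 2. The members and gene lists were chosen with earlier results of these data known. Named were all members, Gzma, Gzmb, Gzmk, Gzmm and Prf1, up to 3 called genes per list and comparison by p, some given as values, and the 10 genes of at least 5 CPM most correlated with the sum. Members were read against RefSeq promoters (GRCm38.p6) and GENCODE transcripts, aligned with Biopython 1.88. The test was checked on simulated data.

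Alternatives were DESeq2 1.42.0 (size factors and test), upper quartile factors, no filter, a stricter filter (5 CPM in 3 libraries), limma 3.58.1 voom with quality weights, the compared libraries alone, a replicate block, and leaving out each library. Dropping both Panc02 libraries numbered 1 and a block within tumour type were added after seeing the data. Deviations from group means correlated between same-numbered gates by 0.411, 0.340 and 0.423 over 10169 genes in Panc02 tumours, which was taken as pairing, and by 0.0569, 0.550 and -0.0464 in Flt3L Panc02 tumours, which was not.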

Additional observations from a re-analysis of the deposited data

How the results depend on the processing

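The lower level of all 5 detected members in Flt3L Panc02 tumours kept its direction under each alternative run in both gates. Leaving out a library could not turn it, since the tumour types did not overlap for these genes. In asGM1-negative cells the direction is also that by which the genes were chosen. The number called in asGM1-positive cells did not: 3 as reported, 1 with no filter on low counts, 5 with the stricter filter, 5 by DESeq2, 0 from the 6 compared libraries, and 0 to 4 when 1 library was left out. The cause was not tested, except that the fit to 6 libraries has fewer samples. With both Panc02 libraries numbered 1 left out, 2 were called and Gzmc had an adjusted p of 0.0799 (log2 fold change -3.00). Without Flt3L Panc02 asGM1-negative replicate 1 the Gzmc value in asGM1-negative cells was -4.46.

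Between gates of Panc02 tumours 0 members were called under every alternative. Signs near 0 turned there: Gzmg was -0.0028 with the replicate block and -0.0133 without both libraries numbered 1, Gzmc was 0.0626 with the block within tumour type, and leave-one-out values ran from -0.306 to 0.303 for Gzmc, from -0.228 to 0.530 for Gzmf and from -0.567 to 0.453 for Gzmg. Between gates of Flt3L Panc02 tumours leaving out 1 library called 0 to 1 members, the call being Gzmg at -9.10 (adjusted p = 0.0465) without asGM1-positive replicate 1, where both asGM1-positive libraries left are at 0 and the value depends on the prior count. Leave-one-out values there ran from 0.0703 to 1.60 for Gzmc, lowest without asGM1-positive replicate 1, from 0.556 to 1.66 for Gzmf, from -0.829 to 0.0974 for Gzmd, from -0.867 to 0.0730 for Gzme and from -9.10 to 0.155 for Gzmg. The replicate block called 0 members there. As a block within tumour type it called 2, Gzmc at 0.837 (edgeR adjusted p = 0.0129) and Gzmf at 1.30 (edgeR adjusted p = 0.0165). Whether the numbers pair these samples is unsettled, with same-number correlations of 0.0569, 0.550 and -0.0464. The replicate block changed no other call of a member. Group means of the summed CPM moved by less than 1 SD, which for leaving out 1 of 3 libraries holds by construction. These SDs are also wide: without Flt3L Panc02 asGM1-negative replicate 1 that group's mean was 117.5 in place of 201.0 CPM.

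Calls over all genes moved by more than 1.5 times: from 182 to between 94 and 831 for the gates of Panc02, from 1754 to between 768 and 3215 for those of Flt3L Panc02, and from 1276 to between 1 and 3120 for tumour types in asGM1-positive cells. With 3 libraries a group, differences of more than 3 standard errors could miss the threshold, as Gzmf and Gzmg did between tumour types in asGM1-positive cells.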

Other observations

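The proteases further along the same locus, which mast cells and basophils use, were low beside the summed cluster. In asGM1-positive cells of Flt3L Panc02 tumours their sum averaged 9.88 CPM, against 5.91 CPM for Gzmd and 6.06 CPM for Gzme. In the other groups the mean of their sum was below those of Gzmd and Gzme. Of 9 such genes looked up by symbol 8 were in the table and 5 passed the filter, and together the 8 took 0.104 to 33.7 CPM in a library, against 52.8 to 3335 CPM for the granzyme cluster. Between gates of Flt3L Panc02 tumours, where 8.59% of all genes were called, 3 of the 5 were called higher in asGM1-positive cells: Cma1, a chymase, by 6.21 ± 1.21 (SE; edgeR adjusted p = 0.01004), Mcpt2 by 4.78 ± 1.34 (edgeR adjusted p = 0.0477) and Mcpt8, a basophil protease, by 2.56 ± 0.62 (edgeR adjusted p = 0.0276). Cma1 was 0.164, 0 and 0 CPM in the negative and 4.12, 4.98 and 3.13 CPM in the positive gate, so the fitted value depends on the prior count. Of 10 mast cell markers 4 were called higher, among them Cpa3 (edgeR adjusted p = 0.0128), and 1 lower (list median 2.71). Cma1 stands in both lists, so these calls are partly the same. The part of mast cells in the protease counts was not tested. In the same fit, which ignored replicate numbers, the granzyme members had 0 calls by edgeR in that comparison, and 0 at an unadjusted p under 0.05. The block within tumour type, added after seeing the data, called 2 members there, Gzmc and Gzmf.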
